A study of Mus musculus with 14 samples.

Results

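Cd24a, Parm1 and Srm were followed across 14 two-colour cDNA arrays that set RNA of Ptdsr-/- mouse fibroblasts against RNA of wild-type (wt) fibroblasts. The genes were chosen by their mean ratios over these same arrays, which had been seen to lie on the knockout side. Every probe whose platform symbol is one of the 3 names was taken, which gave 3 of 9930 named genes and 6 of 20355 probes, 2 per gene, and all 6 had enough values for the fit over all probes. Ptdsr, now named Jmjd6, encodes a nuclear JmjC-domain protein first described as a receptor for phosphatidylserine. No other allele, treatment, age or strain is given for either genotype. The knockout RNA carried Cy5 on 7 arrays (replicates 1, 3, 4, 7, 8, 9 and 13) and Cy3 on the other 7. The design text names 2 cultures without saying which array came from which, so the spread between arrays may be partly technical, and a difference between cultures cannot be told apart from one between genotypes.

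Cd24a encodes a very short, heavily glycosylated mucin-type protein that a glycosylphosphatidylinositol (GPI) lipid anchor holds on the cell surface. It marks many progenitor, epithelial, neural and immature blood cells, and it serves as a ligand for P-selectin and for inhibitory Siglec receptors. Parm1 encodes a mucin-like membrane glycoprotein rich in serine and threonine that was described as androgen-regulated in the prostate. Srm encodes spermidine synthase, which transfers an aminopropyl group to putrescine and so makes spermidine, a polyamine that growing cells need for translation. Spermidine is the source of the hypusine residue of the translation factor eIF5A, and Srm is a textbook target of the growth regulator Myc.

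Each value is a log2 ratio, knockout over wild type, centred on its array's median, so 1 unit is a doubling of the ratio. A ratio carries no level, and the arrays cannot show how strongly any of these genes was expressed or whether fibroblast markers were present. In bulk RNA, more cells of a type and more RNA per cell cannot be told apart. The direction is likely rather than stated. The repeated extreme value that codes a zero denominator was positive on 7 of the 7 Cy5 arrays (as arrays are named below by the dye of the knockout) and negative on 7 of the 7 Cy3 arrays, as it would be if a Cy5 over Cy3 ratio had been turned on the swapped arrays before deposit. Rank correlations across probes between arrays of opposite dye centred near 0 (median 0.0027, 25 of 49 pairs above 0). Pearson correlations between arrays of the same dye also centred near 0 (median 0.0037, 23 of 42 pairs above 0, -0.218 to 0.27). Arrays shared little of their profile even within a dye orientation, so these correlations could not settle the direction. Jmjd6, the check of the labels, had 2 probes that read differently. Probe 6 had a mean of -0.51 ± 1.14 (SD, n = 14) and lay below 0 on 12 of 14 arrays, with its highest value, 2.92, on replicate 2. Probe 20323 had values on 5 arrays only, too few for the fit, with a mean of 0.27 ± 1.10 (SD, n = 5) and 4 of 5 above 0. It averaged 0.81 on 3 Cy5 arrays and read 0.56 and -1.65 on 2 Cy3 arrays. Where either probe lies relative to the deletion is not known here, so Jmjd6 did not settle the labels. Between 13165 and 19615 probes had a usable value on an array, with the fewest on replicates 1 and 2.

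Across all 18503 tested probes, limma called 6 at an adjusted p below 0.05 (0.0324%), each lower in the knockout, and 0 higher. At an unadjusted p below 0.05, 425 were higher (2.3%). The means of Cd24a, Parm1 and Srm in this contrast are what chose them, so they are given as a description with no test.

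The highest mean of the 6 probes belonged to Cd24a, whose 2 probes differed. Probe 19734 had a mean log2 ratio of 0.87 ± 0.48 (SD, n = 14), a 1.82-fold ratio, and lay above 0 on 13 of 14 arrays. On the Cy5 arrays its values ran from 0.61 to 1.76 with a median of 0.92, and all 7 arrays lay above 0. On the Cy3 arrays they ran from -0.048 to 1.45 with a median of 0.88. The highest value was on replicate 1, and the lowest, on replicate 12, was the only one below 0. The values of both dye orientations overlapped.

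The other Cd24a probe, 15531, was much closer to 0, with a mean of 0.16 ± 0.55 (SD, n = 14) and 10 of 14 arrays above 0. Its lowest, median and highest values were -1.39, 0.15 and 0.89 on the Cy5 arrays, and on the Cy3 arrays they were -0.23, 0.24 and 0.64. Replicate 13 stood far below the rest at -1.39, on an array where probe 19734 read 1.15. Without replicate 13 the mean of probe 15531 was 0.28, which is 1.73 times its value over all arrays. Probe 19734 exceeded probe 15531 on 13 of 14 arrays, by 0.70 ± 0.63 (SD, n = 14) on average. The sequences of the spotted cDNAs were not used here, so which part of the transcript each probe reads, or whether it also binds transcripts of other genes, was not tested.

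Parm1 was the gene whose 2 probes gave the most similar values. Probe 16318 had a mean of 0.67 ± 0.47 (SD, n = 13), a 1.59-fold ratio, and probe 6754 a mean of 0.42 ± 0.41 (SD, n = 14), a 1.34-fold ratio. Each was above 0 on 12 arrays, of 13 and 14 measured. The median absolute difference between both probes on the same array was 0.23, against 0.66 for Cd24a and 1.06 for Srm. Among 1935 genes with 2 tested probes the median of this quantity was 0.70, and 4.7% of genes had a smaller one than Parm1. Probes that vary little between arrays give small differences, and 93.1% and 92.0% of tested probes varied more than probes 6754 and 16318. Across arrays the 2 Parm1 probes had a Pearson r of 0.21 (n = 13). The small difference therefore does not show that they rose and fell together.

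The spread of Parm1 over arrays differed in place between its probes. Probe 16318 ran from -0.048 to 0.82 (median 0.37) on the Cy5 arrays, and on the Cy3 arrays from 0.46 to 1.86 (median 0.89, n = 6). Its highest value was on replicate 12, and it had no value on replicate 2. For probe 6754 the Cy5 values ran from -0.28 to 0.73 (median 0.21) and the Cy3 values from 0.24 to 1.46 (median 0.53). Here the highest value was on replicate 2, while replicate 12 read 0.24. Replicate 4 was the lowest array for both probes, at -0.048 and -0.28, and the only array on which both lay below 0.

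Srm was read alike by its 2 probes on few arrays. Probe 15335 had a mean of 0.67 ± 0.57 (SD, n = 14), a 1.59-fold ratio, and lay above 0 on 13 of 14 arrays. Its values ran from -0.011 to 0.86 with a median of 0.46 on the Cy5 arrays, and on the Cy3 arrays from 0.37 to 2.05 with a median of 0.75. The largest values were on replicates 12 (2.05), 11 (1.43) and 2 (1.27), which are Cy3 arrays, and replicate 3 was the only array below 0.

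Probe 7507 of Srm was far noisier, with a mean of 0.29 ± 2.07 (SD, n = 13) and 8 of 13 arrays above 0. Its extremes were -4.80 on replicate 7 and 3.93 on replicate 12, and leaving out replicate 7 raised the mean to 0.72, while leaving out replicate 12 brought it to -0.010. Its mean was -0.88 ± 2.02 (SD, n = 6) on the Cy5 arrays and 1.30 ± 1.63 (SD, n = 7) on the Cy3 arrays. The Cy5 mean included the -4.80 of replicate 7, and the Cy5 median was -0.11, with 3 of 6 arrays above 0. On the Cy3 arrays the median was 1.20, with 5 of 7 above 0. Each orientation thus had arrays on both sides of 0. Both Srm probes lay above 0 on 7 of the 13 arrays that measured both, and on opposite sides of 0 on the other 6. A statement that Srm was higher in the knockout therefore rested on probe 15335.

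**Figure D1:**
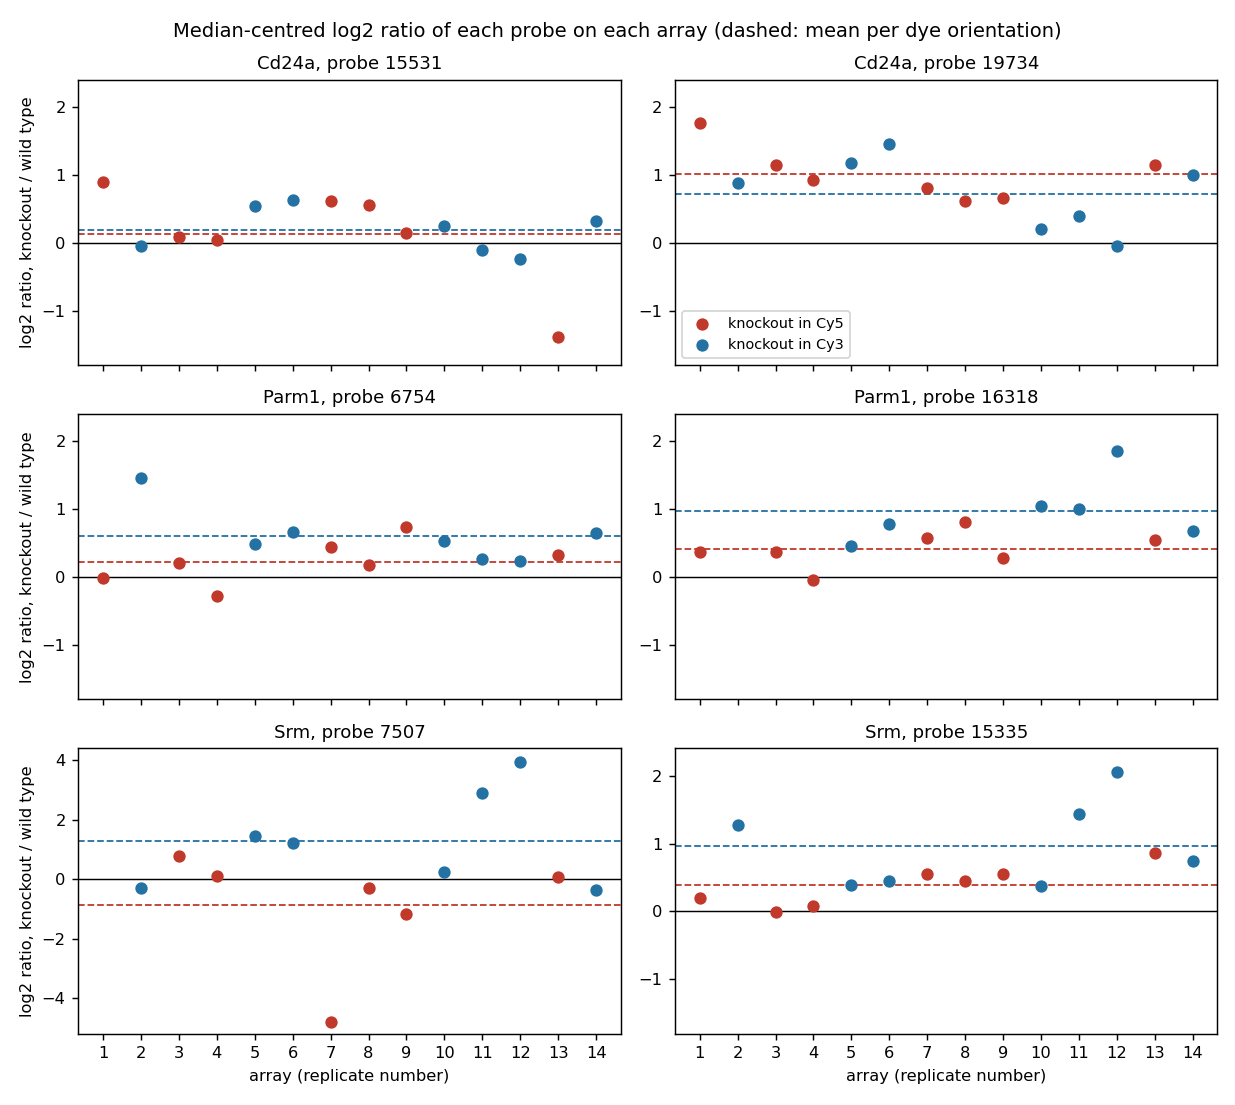
Median-centred log2 ratio of knockout over wild type (vertical axis) on each of the 14 arrays (horizontal axis, replicate number) for the 6 probes, in red for arrays with the knockout in Cy5 and in blue for Cy3, with the mean of each orientation dashed; the panel of Srm probe 7507 has a wider vertical axis. Cd24a probe 19734 and Srm probe 15335 lie above 0 on 13 of 14 arrays, and Srm probe 7507 runs from -4.80 to 3.93.

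Averaged over the probes with a value on an array, Cd24a had a mean of 0.52 ± 0.41 and lay above 0 on 12 of 14 arrays. Parm1 lay at 0.57 ± 0.38, above 0 on 13, and Srm at 0.48 ± 1.16, above 0 on 12 (SD, n = 14 each). Parm1 on replicate 2 (1.46) and Srm on replicate 1 (0.20) rested on 1 probe only. The 3 averages lay closer together than 1 SD of any of them. The order by each gene's higher probe (Cd24a, then Parm1 and Srm) likewise spanned less than 1 SD between arrays. This SD describes the spread of single arrays and not the precision of a mean, and the order of the genes was not tested.

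**Figure D2:**
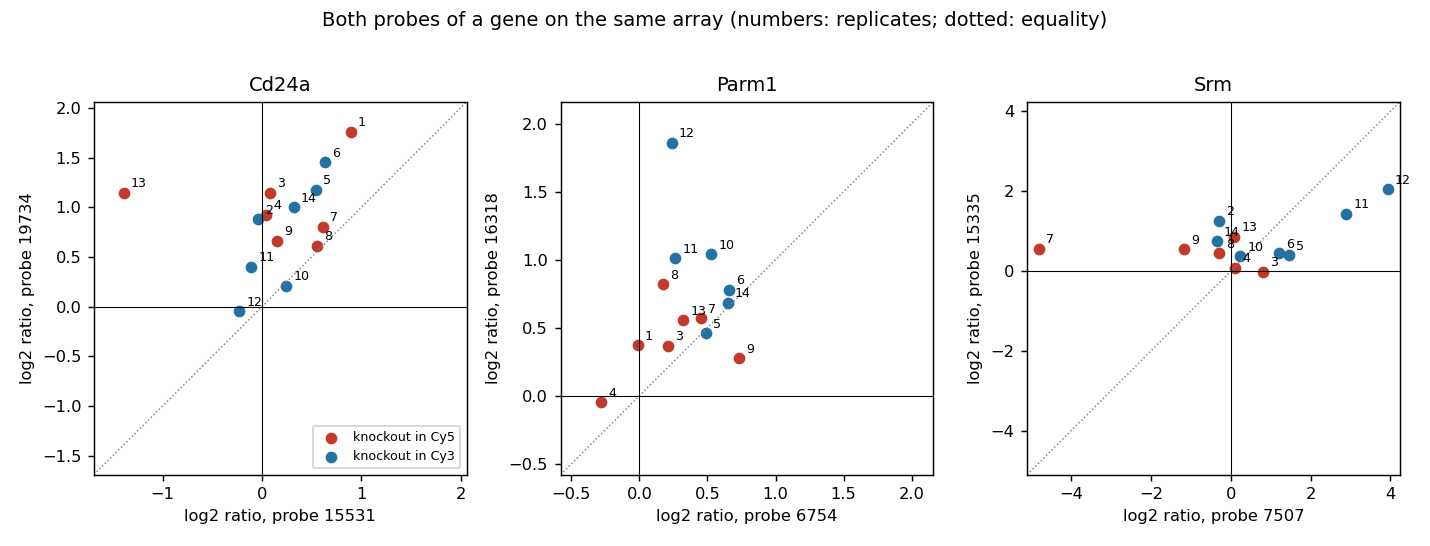
Log2 ratio of the second probe (vertical axis) against that of the first probe (horizontal axis) of the same gene on the same array, numbered by replicate and coloured by the dye of the knockout, with the dotted line marking equal values. Of the 13 Parm1 points 9 lie within 0.5 log2 units of the line, with replicate 12 farthest from it, the Cd24a points lie above it on 13 of 14 arrays, and the Srm points spread along the axis of probe 7507.

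The spread between arrays set 5 of the 6 probes apart from the sixth. The residual SD in the fit was 0.37 and 0.38 for the Parm1 probes 6754 and 16318, 0.48 and 0.58 for the Cd24a probes 19734 and 15531, and 0.50 for Srm probe 15335. The median over all tested probes was 0.90, and 93.1% of them varied more than Parm1 probe 6754. Srm probe 7507, at 1.82, varied more than 95.4% did. On the scale of the fitted mean, 101 of the 18503 probes lay higher than Cd24a probe 19734, 279 higher than Parm1 probe 16318 and 316 higher than Srm probe 15335. Parm1 probe 6754 had 1303 probes above it, Srm probe 7507 had 3911 and Cd24a probe 15531 had 4861. These positions restate the values that chose the genes, and they hold only for the direction taken. With the Cy3 arrays turned, 5212 probes would lie above Cd24a probe 19734, 14912 above Parm1 probe 16318 and 15069 above Srm probe 15335.

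**Figure D3:**
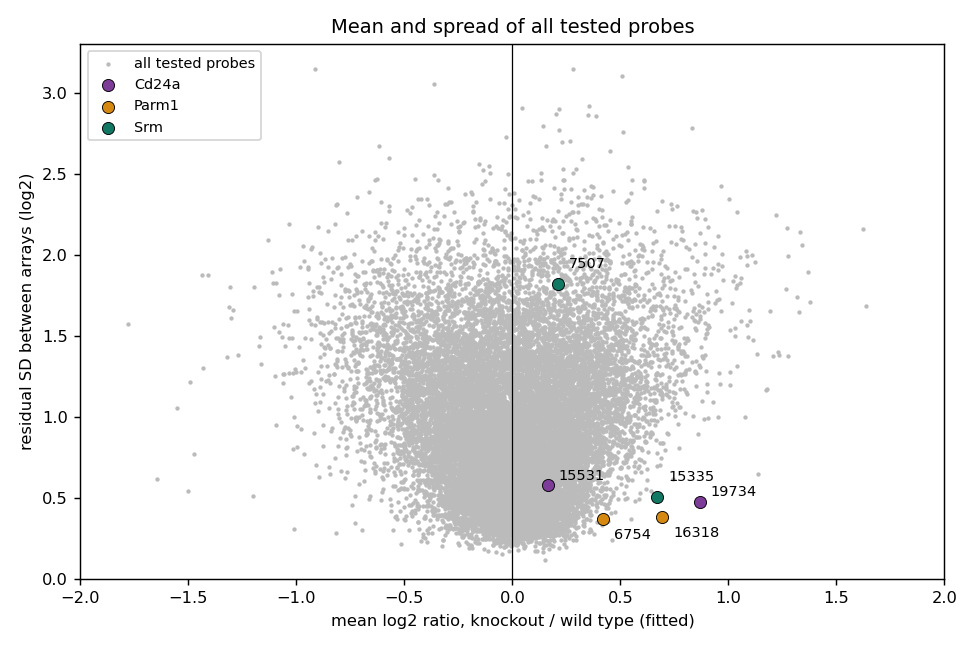
Fitted mean log2 ratio (horizontal axis) against the residual SD between arrays (vertical axis, log2 units) for all 18503 tested probes in grey, with the 6 labelled probes in colour. The labelled probes lie at the lower right edge of the cloud, apart from Cd24a probe 15531 within it and Srm probe 7507, whose residual SD was 1.82.

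Dim spots give ratios of small whole numbers, and these stood in for the spot intensities, which were not used here. Of all usable values, 20.6% matched a ratio of 2 whole numbers no larger than 10, with a tolerance of 0.0011 log2 units. The share was 0 of 28 values for Cd24a, 3 of 27 for Parm1 and 4 of 27 for Srm. Of the 4 Srm values 3 belonged to probe 7507. No value of the 6 probes was a coded extreme.

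The dye term asked whether the ratio of a probe depended on which dye the knockout RNA carried. The choice of the genes did not use this term, so it was tested. None of the 6 probes passed (limma, adjusted p from 0.607 to 0.977), against 1 of 18503 probes called (0.0054%). At an unadjusted p below 0.05 it was 1 of the 6, Srm probe 7507 (p = 0.0313), against 7.66% of all probes. Both Parm1 probes and both Srm probes had the higher mean on the Cy3 arrays. The mean of the Cy5 arrays minus that of the Cy3 arrays was -0.38 for Parm1 probe 6754, -0.56 for Parm1 probe 16318, -0.57 for Srm probe 15335 and -2.18 for Srm probe 7507. For Cd24a it was 0.28 (probe 19734) and -0.062 (probe 15531). The fit's standard error of the dye coefficient was 0.13 to 0.17 for the 5 less variable probes, with coefficients between -0.29 and 0.14, so a dye effect of the size seen in Parm1 or Srm was not resolved by 14 arrays.

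The reading of all 6 means depended on the direction taken for the swapped arrays. If the Cy3 arrays still needed turning, the means would be -0.19 and -0.22 for Parm1, -0.29 and -1.10 for Srm, and 0.14 and -0.031 for Cd24a. Under that reading 5 of the 6 probes would lie below 0 on average, and the means given above would be the dye terms.

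For some of the probes the ratios differed between ranges of replicate numbers. Replicates 1 to 6, 7 to 12 and 13 to 14 are no labelled groups, and this split was taken up after the values had been seen, so it was not tested. Cd24a probe 19734 averaged 1.22 ± 0.33 (SD, n = 6) over replicates 1 to 6 and 0.44 ± 0.32 (SD, n = 6) over replicates 7 to 12, and replicates 13 and 14 read 1.15 and 1.001. The lower values were those of replicates 10, 11 and 12, at 0.21, 0.40 and -0.048. The lowest value of this probe in replicates 1 to 6 was 0.88, and its highest in replicates 7 to 12 was 0.80. How many of all probes separate in this way was not counted, so this is not shown to be particular to Cd24a. Cd24a probe 15531 differed less, at 0.36 ± 0.38 and 0.20 ± 0.34 (SD, n = 6 each).

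Parm1 probe 16318 and Srm probe 15335 had the higher average in replicates 7 to 12. Parm1 probe 16318 averaged 0.39 ± 0.30 (SD, n = 5) over replicates 1 to 6 and 0.93 ± 0.54 (SD, n = 6) over replicates 7 to 12, and Srm probe 15335 averaged 0.40 ± 0.46 and 0.90 ± 0.68 (SD, n = 6 each). These ranges of values overlapped. Srm probe 7507 went against the other Srm probe, at 0.65 ± 0.74 (SD, n = 5) and 0.14 ± 3.11 (SD, n = 6). Parm1 probe 6754 had nearly equal averages in both, at 0.42 and 0.40. Within replicates 1 to 6 it averaged -0.027 on the Cy5 arrays and 0.87 on the Cy3 arrays, the latter including the 1.46 of replicate 2. Within replicates 7 to 12 the order was the opposite, at 0.45 and 0.34 (n = 3 in each case).

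Across arrays, Srm probe 15335 and Parm1 probe 16318 had a Pearson r of 0.82 and a Spearman rho of 0.57 over 13 arrays. Without replicates 11 and 12, the 2 arrays farthest from the Srm median, r was 0.42, so the relation rested largely on them. Cd24a probe 19734 ran against Parm1 probe 16318 (r = -0.67, rho = -0.56, n = 13), with r = -0.59 without replicates 4 and 12. Against Srm probe 15335 it had r = -0.60 and rho = -0.46 (n = 14), and r = -0.17 without replicates 11 and 12. The 2 Cd24a probes had r = 0.26 and rho = 0.42 (n = 14), which was 0.55 without replicates 1 and 13, and the 2 Parm1 probes had r = 0.21 and rho = 0.17 (n = 13), with r = 0.02 without replicates 4 and 9. The 2 Srm probes had r = 0.47 and rho = 0.027 (n = 13), with r = 0.24 without replicates 7 and 12. These are descriptions over 15 pairs of probes. The arrays share cultures, number ranges and dye orientation, so they are not independent points, and no p is given.

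For each of the 6 probes the 3 probes of other genes with the highest Pearson r over at least 12 arrays were taken, out of 8973 to 10258 compared. The nearest to Cd24a probe 19734 were Tmem123 (r = 0.93), Crabp1 (0.93) and Ppa1 (0.93), which kept r between 0.88 and 0.90 without replicates 1 and 12. Their own means were -0.097, -0.049 and 0.13, so they followed the same arrays without the same offset from 0. Tmem123 encodes a mucin-like membrane glycoprotein and Crabp1 a retinoic acid binding protein. Nearest to Cd24a probe 15531 were Prkd1 (0.94), Lpo (0.91) and Cope (0.90), with r between 0.61 and 0.75 once replicates 1 and 13 were left out.

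Tmem251 was among the nearest probes of both Parm1 probe 16318 (r = 0.91) and Srm probe 15335 (r = 0.88). The other nearest probes of Parm1 probe 16318 were Mrpl53 (0.93) and Slpi (0.91), and those of Srm probe 15335 were Oxct1 (0.88, but 0.30 without replicates 11 and 12) and Nr2c2 (0.87). Parm1 probe 6754 was nearest to Phospho2 (0.92), Polr1a (0.91) and Atpaf1 (0.91), each at 0.71 or 0.72 without replicates 2 and 4. Srm probe 7507 was nearest to Ift46 (0.98), Gcdh (0.94) and Acbd3 (0.90). With so many probes and at most 14 arrays, high values of r arise without any relation between genes.

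The polyamine pathway was read through 28 listed genes beside Srm, of which 17 were tested. By limma on genes with probes averaged, 0 of the 17 were called, and at an unadjusted p below 0.05 it was 1 lower (Sms) and 0 higher. Over all 9270 tested genes 8 were called (0.0863%), all lower, with 2.41% higher and 2.94% lower by unadjusted p. The fitted means (each dye orientation counted equally) of the list had a median of -0.002, against 0.002 over all genes. Of the 17, 8 lay above 0 and 9 below.

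Among the synthetic steps, Odc1, which encodes ornithine decarboxylase and makes the putrescine that Srm uses, had a mean of 0.28 ± 0.61 (SD, n = 14). On 12 of 14 arrays it lay above 0, its values ran from -1.40 to 1.23, and it did not pass (limma, adjusted p = 0.901). Odc1 averaged 0.525 on the Cy5 arrays and 0.031 on the Cy3 arrays, whereas Srm probe 15335 averaged 0.38 and 0.96. Sms, the spermine synthase that uses the product of Srm, had a mean of -0.28 ± 0.39 (SD, n = 14), above 0 on 3 of 14 arrays. It was the list's member with the smallest p (unadjusted p = 0.0453, adjusted p = 0.901, limma). The means of Srm and Sms lay on opposite sides of 0, and the difference between them was not tested. Of the genes that supply the aminopropyl donor, Amd2 had values on 7 arrays and was not tested, and Amd1 is not analysed here.

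On the side of breakdown and control, Sat1, the acetyltransferase that starts polyamine catabolism, had a mean of 0.14 ± 0.44 (SD, n = 14). Sat2 lay at 0.24 ± 0.49 and Smox, the spermine oxidase, at -0.22 ± 1.23 (SD, n = 14 each). The antizyme gene Oaz2, whose product marks ornithine decarboxylase for degradation, lay at 0.052 ± 0.44 (SD, n = 14). Eif5a, which carries the hypusine made from spermidine, lay at -0.002 ± 0.54 (SD, n = 14), and Dohh, which completes hypusine, at -0.46 ± 1.27 (SD, n = 13). None of them passed the test, and each mean was smaller than its SD between arrays.

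The list of Myc partners and growth targets, to which Srm belongs as a class but in which it was not counted, had 28 tested members. By limma 0 were called, and 0 had an unadjusted p below 0.05. That unadjusted count, like those of other lists, moved with the processing. With the arrays scaled to a common spread it was 5 of 28 (564 of 9270 over all genes). On the Cy5 arrays alone it was 4 of 28 (587 of 9739), and on the Cy3 arrays alone 1 of 28 (668 of 9732). It was 5 of 27 without replicate 11 (480 of 8907) and 4 of 27 without replicate 12 (481 of 8864). Leaving out any other single array gave 0 to 3. The fitted means lay above 0 for 23 of the 28, against 50.4% of all genes, and their median was 0.18, against 0.002 for all genes. With the Cy3 arrays turned, 17 of the 28 lay above 0 (49.4% of all genes) and the median was 0.042. The members with the smallest p were the nucleolar proteins Ncl (nucleolin) at 0.27 ± 0.38 (SD, n = 14) and Npm1 (nucleophosmin) at 0.23 ± 0.34 (SD, n = 14), Pa2g4 at 0.51 ± 1.0 (SD, n = 14) and Rrp9, on the other side, at -0.38 ± 0.61 (SD, n = 13). Each had an adjusted p of 0.901 (limma). The median of the list was 0.17 over the Cy5 arrays and 0.094 over the Cy3 arrays. On single arrays the list median ran from -0.128 (replicate 11) to 0.481 (replicate 2). It lay below 0 on replicates 7 (-0.051), 10 (-0.036), 11 and 12 (-0.014), and above 0 on all others. Srm probe 15335 had its highest values, 1.43 and 2.05, on replicates 11 and 12. The list median was thus not raised on the arrays where this Srm probe was highest. Myc itself lay at 0.26 ± 1.48 (SD, n = 10).

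**Figure D4:**
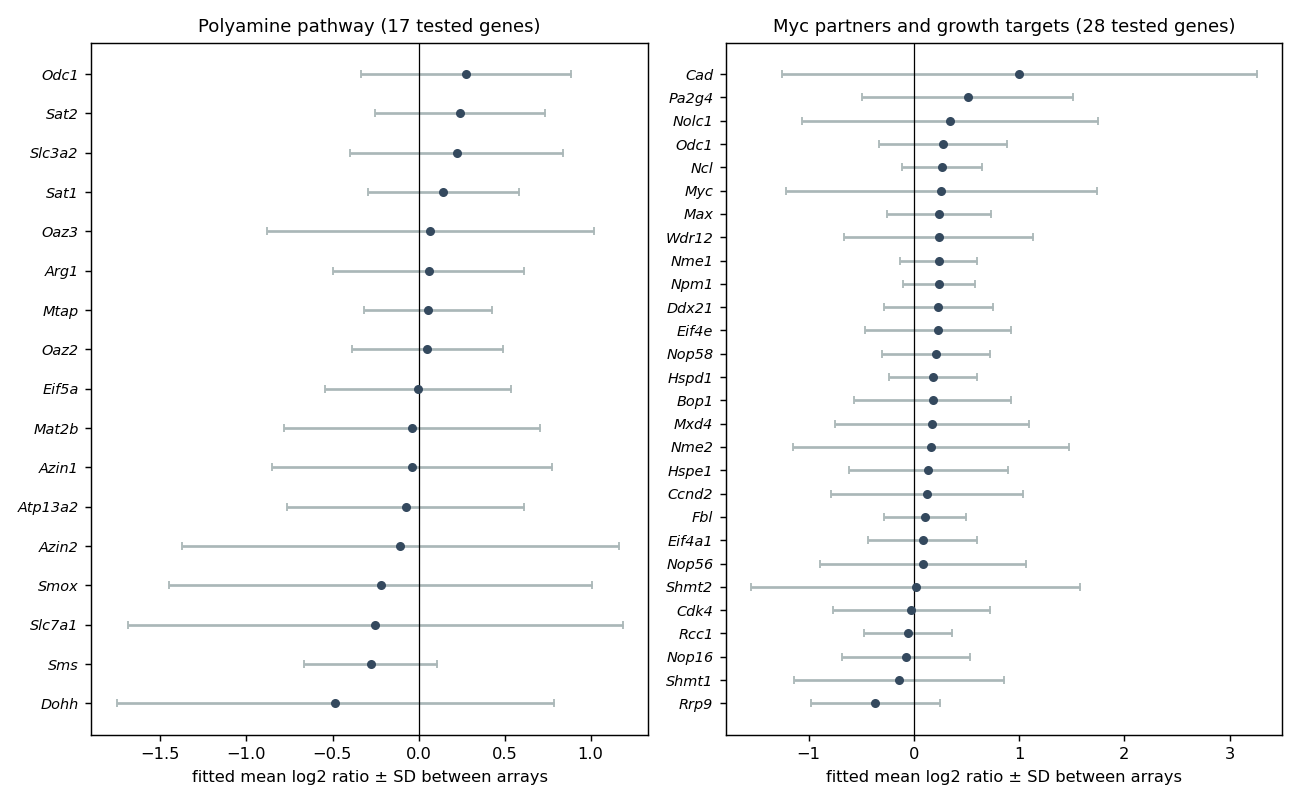
Fitted mean log2 ratio (points) with the SD between arrays (bars) for the 17 tested polyamine pathway genes (left) and the 28 tested Myc partners and growth targets (right), ordered by mean. Polyamine genes lie on both sides of 0 with 8 above it, and 23 of the 28 genes at the right lie above 0 (17 with the Cy3 arrays turned), with 0 called in either list.

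Genes of the classes to which Cd24a and Parm1 belong lay on both sides of 0. Of 18 tested genes for GPI-anchored surface proteins, 0 were called by limma, and the median of their means was -0.11. By unadjusted p 2 were lower and 0 higher, against 2.94% and 2.41% of all genes. The 2 were Prnp, the prion protein gene, at -0.39 ± 0.63 (SD, n = 14), and Cd48 at -0.59 ± 1.02 (SD, n = 13). Prnp averaged 0.033 on the Cy5 arrays and -0.82 on the Cy3 arrays, and Cd48 -0.94 and -0.29. The 17 tested genes of GPI anchor synthesis had a median of -0.012, with 0 called and 0 at an unadjusted p below 0.05, and Dpm3 (-0.51 ± 0.91, SD, n = 13) and Gpaa1 (-0.53 ± 0.83, SD, n = 10) had the smallest p.

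Mucins and other mucin-like membrane glycoproteins had 18 tested members and a median of -0.096. By limma 0 were called. At an unadjusted p below 0.05 1 was higher (Emcn, endomucin, 0.75 ± 1.27, SD, n = 10) and 3 were lower, against 2.41% and 2.94% of all genes. The 3 were Cd34 at -0.55 ± 0.74, Lamp2, a lysosomal membrane protein, at -0.30 ± 0.32, and the syndecan Sdc2 at -0.31 ± 0.38 (SD, n = 14 each). These 3 averaged below 0 in both dye orientations, while Emcn averaged 0.12 on the Cy5 arrays and 1.38 on the Cy3 arrays. The unadjusted count of the list was 0 of 18 on the Cy5 arrays alone (587 of 9739 over all genes). On the Cy3 arrays alone it was 3 of 18 (668 of 9732), and with the Cy3 arrays turned 1 of 18 (689 of 9270). The 5 tested genes described as partners of the Cd24a product had a median of 0.017, with Selp, which encodes its receptor P-selectin, at -0.083 ± 1.26 (SD, n = 10). Selp averaged 0.63 on the Cy5 arrays and -1.16 on the Cy3 arrays. The 6 tested androgen response genes had a median of 0.079, with Pmepa1 at 0.18 ± 0.23 (SD, n = 14) as the one with the smallest p. Both lists had 0 called by limma and 0 at an unadjusted p below 0.05.

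Cd24a is also a marker of cells other than fibroblasts, so markers of such cells were read beside it. The 14 tested epithelial markers had a median of 0.024, 7 above 0 and 7 below, and list medians on single arrays from -0.39 to 0.73. Krt14, a basal keratin, had the smallest p, at -0.48 ± 0.44 (SD, n = 14, limma adjusted p = 0.588), and Cdh1 lay at -0.41 ± 1.60 (SD, n = 14). On the other side of 0, Krt19 lay at 0.58 ± 1.30 (SD, n = 12) and Krt5 at 0.31 ± 1.06 (SD, n = 13). The 6 tested B cell markers had a median of 0.070 (-1.29 to 0.91 on single arrays), and the 9 granulocyte and erythroid markers a median of -0.029 (-0.44 to 1.16). The 11 neural markers had a median of 0.10 (-0.24 to 0.56), with 8 above 0, against 50.4% of all genes. At an unadjusted p below 0.05 2 were higher, against 2.41% of all genes. The 2 were Nes, the intermediate filament nestin, at 0.59 ± 0.68, and Mapt at 0.37 ± 0.63 (SD, n = 14 each), with limma adjusted p = 0.665 and 0.901. Nes averaged 0.83 on the Cy5 arrays and 0.36 on the Cy3 arrays, and Mapt 0.009 and 0.74. The 17 fibroblast markers had a median of 0.002 (-0.68 to 0.53 on single arrays), with 9 above 0. At an unadjusted p below 0.05 3 were lower, against 2.94% of all genes. The 3 were Dcn at -0.65 ± 0.72, Col6a1 at -0.59 ± 0.77 and Postn at -0.33 ± 0.39 (SD, n = 14 each). Above 0 lay, among others, Pdgfrb at 0.25 ± 0.55 (SD, n = 13) and Vim at 0.20 ± 0.49 (SD, n = 14). The unadjusted count was 0 of 17 on the Cy5 arrays alone (587 of 9739 over all genes) and 2 of 17 on the Cy3 arrays alone (668 of 9732). With the Cy3 arrays turned it was 1 of 17 (689 of 9270), and 13 of the 17 lay above 0 (49.4% of all genes). The lowest fibroblast list medians were -0.68 and -0.60, on replicates 12 and 11, and the highest was on replicate 13. On replicates 12 and 11 Srm probe 15335 had its highest values and Cd24a probe 19734 read -0.048 and 0.40. Other lists were extreme on these arrays too. The mucin-like list had its lowest medians there (-0.498 and -0.425), as had the polyamine list (-0.21 and -0.274). The neural list had its highest (0.466 and 0.564), so the extremes were not particular to the fibroblast list. By limma 0 members of these 5 lists were called, and at an unadjusted p below 0.05 the epithelial list had 1 (Krt14) and the B cell and the granulocyte and erythroid lists had 0. The part of other cells, or of the fibroblast markers, in the ratios of the 3 genes was not tested.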

How the data were processed

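The authors deposited, per array (14), log2 ratios for 20355 probes, made from indirectly labelled cDNA per the labels' protocols. That text speaks of organs and of a pool from control animals; the channel labels, which name fibroblasts, were followed. Scanner, background correction and any normalization are not stated in the labels; base 2 was inferred from steps between ratios of small whole numbers. Coded extremes (absolute value above 12, 16.6 units from the array's 1:1 step) were set to missing before centring on array medians. Probes measured on 10 or more arrays, 4 or more per dye orientation, were fitted with limma 3.58.1 in R 4.3.3 (intercept and dye term, lmFit, eBayes, Benjamini-Hochberg over all probes or genes); the fit was tested on simulated data. Wild-type RNA was 1 control whose own spread was not measured. The platform annotation gave 1 symbol to 14030 probes, several to 5 and none to 6320, and no symbol needed updating.

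The members, gene lists and tests were chosen with earlier results of these data known. Named genes were the members, Jmjd6, Odc1, Amd1, Sms and Sat1, up to 4 genes of smallest p per list, and the 3 most correlated probes per member; other genes were named after their values were seen. Alternatives covered extremes, centring, scaling, direction, filters, eBayes, blocks, single dyes and single arrays.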

Additional observations from a re-analysis of the deposited data

Results flagged for a closer look

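Among 14 groups of arrays of one dye orientation (the 6 probes and Jmjd6 probe 6), 3 held a value that stood apart from the rest of their group by a gap test that flags about 1 group in 20 by chance. With the knockout in Cy5, Cd24a probe 15531 read -1.39 on replicate 13, where the next lowest array read 0.039. With the knockout in Cy3, Parm1 probe 6754 read 1.46 on replicate 2, where the next highest array read 0.66. With the knockout in Cy5, Srm probe 7507 read -4.80 on replicate 7, where the next lowest array read -1.16. In each case the gene's other probe read otherwise or had no value on that array: Cd24a probe 19734 read 1.15 on replicate 13, Srm probe 15335 read 0.56 on replicate 7, and Parm1 probe 16318 had no value on replicate 2.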

How the results depend on the processing

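With the Cy3 arrays turned, the means were -0.19 (Parm1 probe 6754), -0.22 (Parm1 probe 16318), -0.29 (Srm probe 15335) and 0.14 (Cd24a probe 19734), moves larger than 1 SD between arrays; Srm probe 7507 (-1.10) and Cd24a probe 15531 (-0.031) changed sign within 1 SD. Under the other settings run for the member means, no mean moved by 1 SD, and no list median did under any setting run for the lists. Leaving out 1 array cannot move a member mean by 1 SD, so for single arrays this limit tells nothing about stability, and the ranges are given instead. Without the 2 arrays with most missing values Cd24a probe 19734 averaged 0.79. Leaving out single arrays gave 0.80 to 0.94 for Cd24a probe 19734, 0.11 to 0.28 for Cd24a probe 15531, 0.34 to 0.47 and 0.57 to 0.73 for Parm1, 0.57 to 0.72 for Srm probe 15335 and -0.010 to 0.72 for Srm probe 7507. The dye term of the 6 probes was not called under any setting, with adjusted p (limma) from 0.563 upward where the arrays were not turned. The 6 probes called for the mean became 1 with the Cy3 arrays turned, 11 with values required on all 14 arrays, and 0 with robust and trended eBayes (604 at an unadjusted p below 0.05) or with either dye orientation alone (1113 and 1315). The 8 called genes became 4, 0 (326 unadjusted) and 0 (587 and 668) under turning, robust eBayes and single dyes, and 5 with a random block of number range by dye. The 1 called dye probe became 6 with the arrays turned, 2 without the 2 arrays with most missing values (chosen after seeing the data), and 0 with scaling, values on all arrays, robust eBayes or either block; leaving out single arrays gave 0 to 3. Calls on the higher side appeared for Cd24a probe 19734 (values on all 14 arrays, a fixed block of number ranges, without replicate 12), for the Parm1 gene average (scaling, values on all 14 arrays) and for Ampd1 (fixed block), which is no support, since these means chose Cd24a and Parm1. The causes were not tested. No paired analysis was possible because the samples form 1 group. The number of arrays limits the precision, and spot signal over background was not analysed here.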
